A study of Homo sapiens with 2 samples.

Results

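Renal tubule and epithelial genes were examined for binding of DEK, a nuclear chromatin protein, in the established renal carcinoma cell line 786-O. The set holds 39 genes named by symbol, of 19970 protein-coding genes on chromosomes 1 to 22 and X, and all 39 matched the RefSeq gene table of GRCh38.p14. They encode the transporters, endocytic receptors and brush border enzymes of the tubule, its cadherins, claudins and keratins, and markers of tubule injury. The data were DEK ChIP-seq peak lists of 1 group with 2 replicates. Both carry the label negative control, a description that names Cas9, the genotype WT and the antibody DEK. A sample with DEK edited, an input and another antibody were not analysed here, so there was no contrast between conditions. Whether the replicates were separate cultures is not stated in the labels, and their spread may be technical. RNA was not analysed here, and the tubule identity of the cells could not be checked against marker expression.

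The proximal tubule takes back most of the filtered solutes through sodium-coupled transporters and takes up filtered protein through the megalin, cubilin and amnionless receptor complex. Segments further along the nephron adjust salt and water through other transporters and water channels. Clear cell renal carcinoma is held to arise from proximal tubule cells, and it often expresses proximal tubule and injury markers such as KIM-1, the product of HAVCR1, together with vimentin. DEK has been described as a histone chaperone and as a protein that changes the topology of DNA, with little sequence preference.

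Peaks of both replicates that overlapped were joined into shared regions, and a gene was counted when a shared region overlapped its span or the 3 kb on either side. The promoters of HAVCR1, MIOX and CLDN2 are shown because a shared DEK region covered all or most of them. Each sequence is the 250 bases before an annotated transcription start in RefSeq (GRCh38.p14), printed 5′ to 3′ on the gene's strand: HAVCR1 at chr5:157059117-157059366 on the minus strand, MIOX at chr22:50486609-50486858 on the plus strand and CLDN2 at chrX:106918110-106918359 on the plus strand. Capitals mark the bases that lay inside the peaks of both replicates.
HAVCR1: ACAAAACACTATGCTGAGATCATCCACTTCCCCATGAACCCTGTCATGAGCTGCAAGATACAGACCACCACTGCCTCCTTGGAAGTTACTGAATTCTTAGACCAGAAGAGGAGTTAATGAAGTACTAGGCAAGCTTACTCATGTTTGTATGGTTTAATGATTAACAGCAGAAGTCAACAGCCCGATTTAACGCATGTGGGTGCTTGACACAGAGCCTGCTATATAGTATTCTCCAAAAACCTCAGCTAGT
MIOX: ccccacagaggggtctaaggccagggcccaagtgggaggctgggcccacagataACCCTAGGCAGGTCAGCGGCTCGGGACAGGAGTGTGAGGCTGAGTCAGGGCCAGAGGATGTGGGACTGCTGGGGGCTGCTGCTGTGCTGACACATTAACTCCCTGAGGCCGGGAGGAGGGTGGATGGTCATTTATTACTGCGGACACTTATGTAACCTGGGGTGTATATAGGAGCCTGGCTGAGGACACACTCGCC
CLDN2: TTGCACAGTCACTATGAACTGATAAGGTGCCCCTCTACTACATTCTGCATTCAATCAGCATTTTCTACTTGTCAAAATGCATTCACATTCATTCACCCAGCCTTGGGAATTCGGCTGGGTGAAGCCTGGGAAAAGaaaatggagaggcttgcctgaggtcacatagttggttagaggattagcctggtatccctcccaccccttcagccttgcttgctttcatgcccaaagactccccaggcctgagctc
The peaks of both replicates covered all 250 bases at HAVCR1, 196 at MIOX and 135 at CLDN2, and the joined region covered 250, 250 and 165. Peak summits lay 133 bp (replicate 1) and 28 bp (replicate 2) before the start of HAVCR1, 112 bp and 77 bp before that of MIOX, and 225 bp and 349 bp before that of CLDN2. The 3 promoters held 2, 5 and 1 CpG dinucleotides, against a median of 14 in the 1076 promoters of the table that overlapped a shared region and 11 in all 35116. Their GC content was 43.2% at HAVCR1, 60.8% at MIOX and 48.8% at CLDN2, against a median of 57.6% over the overlapping promoters. Over the 43 promoters of the members, bound or not, the medians were 7 CpG dinucleotides and 60.8% GC.

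A shared DEK region was found at 20 of the 39 genes (51.3%, 95% Wilson interval 36.2 to 66.1), against 26.8% of all protein-coding genes. Because a long gene offers more sequence for a peak, each gene was set beside other protein-coding genes of similar length, where the longer of any pair exceeded the shorter by at most 25%, between 271 and 2380 genes each. At the shares of those genes, 10.8 of the 39 (27.6%) would hold a region. The 20 genes held 36 regions, 1.32 per 100 kb of window, and genes of similar length would hold 18.6, or 0.681 per 100 kb. CUBN, HAVCR1 and SLC4A4 together held 15 of the 36, and the other 36 genes held 21 regions where similar genes would hold 15.1. Of the 39, 7 had at least 2 regions, against 9.05% of all protein-coding genes, and genes of similar length would give 3.69. These are counts with no test, because the genes were chosen with earlier results of these data known, and the interval covers counting error only.

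**Figure D1:**
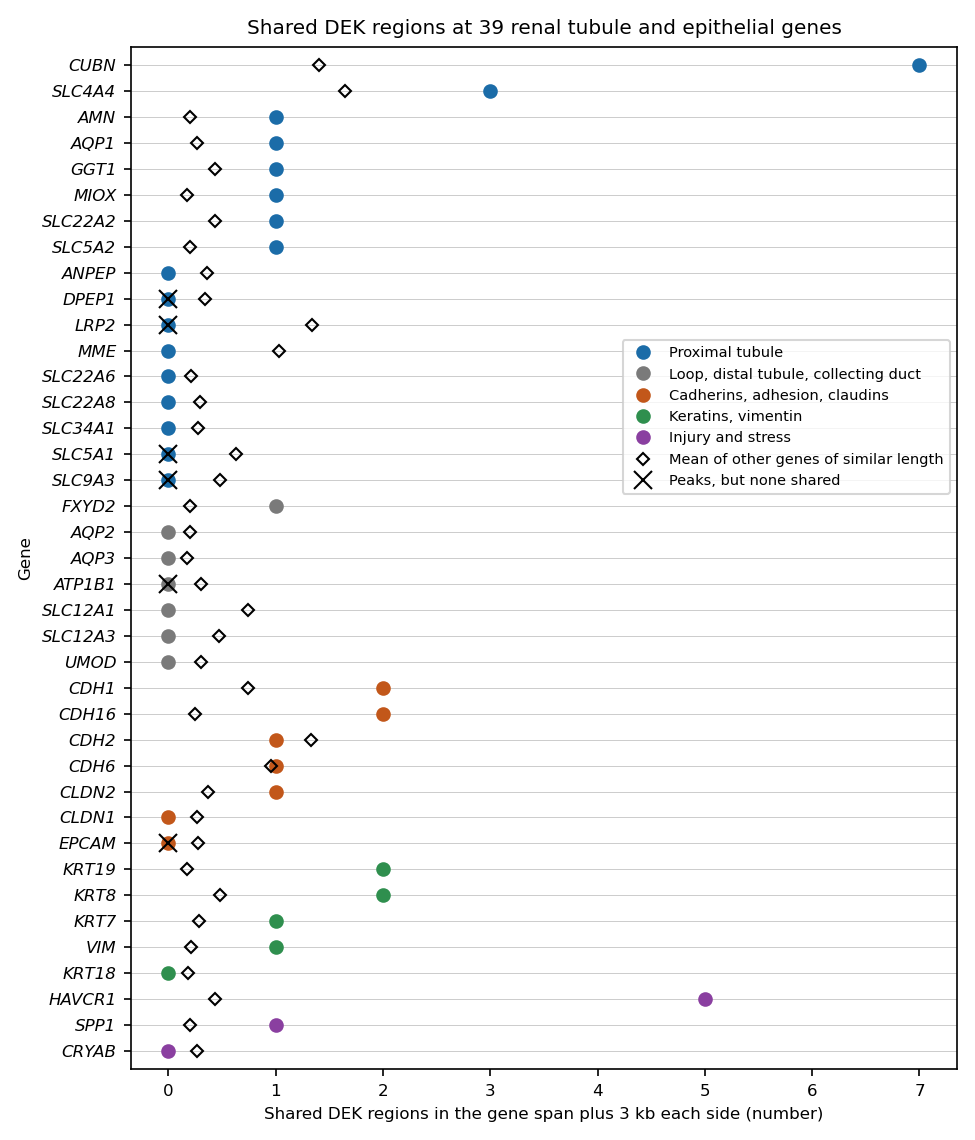
Number of shared DEK regions (horizontal axis) at each of the 39 genes (vertical axis), coloured by role, with the mean over other protein-coding genes of similar length as open diamonds; crosses mark genes with peaks but no shared region. CUBN with 7, HAVCR1 with 5 and SLC4A4 with 3 lie farthest to the right, and 19 genes lie at 0.

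The gap to other genes was largest among short genes, a difference between length classes that was not tested. Of the 11 members under 10 kb, 7 had a region (63.6%, Wilson interval 35.4 to 84.8), namely AMN, FXYD2, KRT19, MIOX, SLC5A2, SPP1 and VIM, against 14.0% of 5644 other genes of that length. Between 10 and 50 kb it was 7 of 16 (43.8%, 23.1 to 66.8), against 24.5% of 8041 other genes. Over 50 kb it was 6 of 12 (50%, 25.4 to 74.6), against 41.2% of 6246. With the gene span alone, without the 3 kb on either side, AMN, KRT19, SPP1 and VIM of the shortest class had no region. CDH16 of the middle class had none either. FXYD2, MIOX and SLC5A2 of the shortest class kept one. The share of other genes under 10 kb was not counted with the gene span alone. The gap among short genes is thus given only for the window with 3 kb on either side. The Wilson intervals cover counting error only and are no test against other genes, because the members were chosen with earlier results known. Within 500 kb outside their windows, the 39 genes had a median of 8 shared regions per Mb, against 6 for other protein-coding genes. That median was 6 around the members with a region and 11 around those without, while among other genes it was 8 around genes with a region and 5 around those without. Among the 7 members with at least 2 regions, the density per Mb was 25 around CDH16, 21 around KRT19, 12 around HAVCR1 and 11 around CDH1. The density was 6 around KRT8, 5 around CUBN and 2 around SLC4A4. Genes of similar length were not matched for this density. The part of this neighbourhood density in the counts was not tested.

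**Figure D2:**
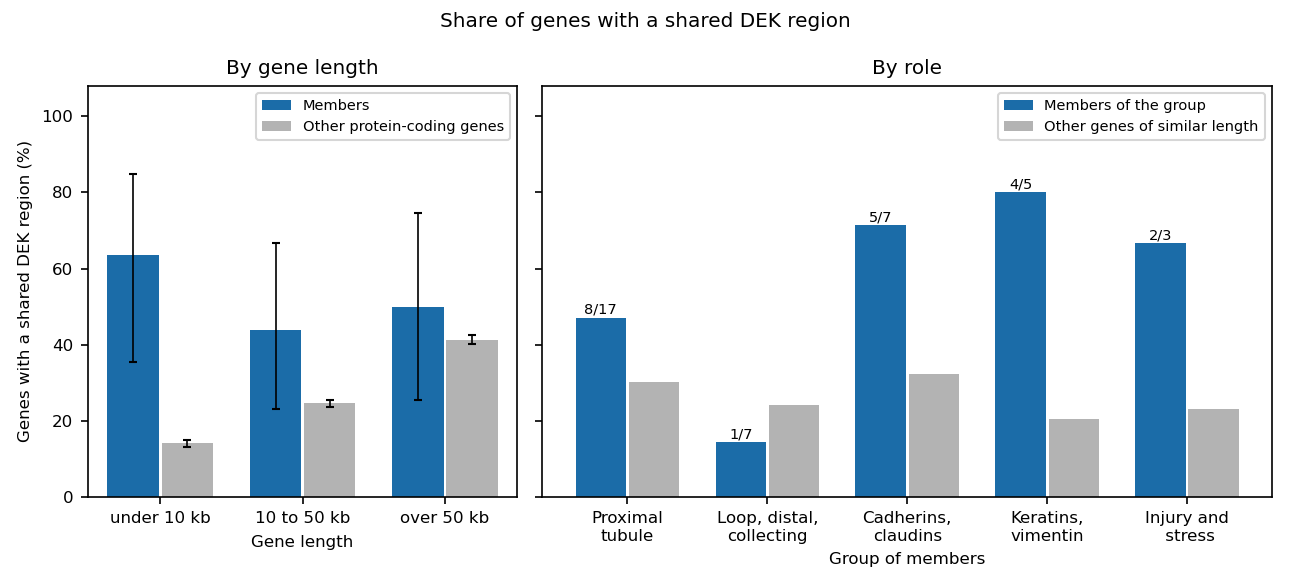
Percentage of genes with a shared DEK region (vertical axis) for members and other protein-coding genes in 3 length classes (left, bars with 95% Wilson intervals) and for 5 groups of members and other genes of similar length (right, with counts). Members under 10 kb reach 63.6%, against 14.0% of other genes, and the loop, distal tubule and collecting duct group is the group below its similar-length genes.

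Most of the regions lay below the median fold enrichment of all shared regions, while their median pileup was not lower. The authors' fold enrichment, a linear ratio at the peak summit within each library, had a median over the 36 regions of 3.68 in replicate 1 and 3.77 in replicate 2, against 4.11 and 4.10 over all 12590 shared regions. The median percentile of fold enrichment among all shared regions was 38.3, with 10 of the 36 above the 50th percentile, 4 above the 75th and 11 below the 25th. The summit pileup, which is the fragment depth recovered from the deposited fold enrichment and p, ranged from 14 to 44 in replicate 1 and from 13 to 41 in replicate 2, so single values carry a wide counting error. The median pileup was 21 in replicate 1 and 24 in replicate 2, against 21 and 22 over all shared regions. The same solution gives the local background of each peak, also in fragments. Its median was 4.65 in replicate 1 and 5.44 in replicate 2, against 4.20 and 4.52 over all shared regions. The lower ratios thus stood over a higher background, and not over fewer fragments at the summit. Only the region within CUBN reached a fold enrichment of 5 in both replicates, against 10.3% of all shared regions. The regions were 430 bp wide at the median, against 427 bp for all shared regions.

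**Figure D3:**
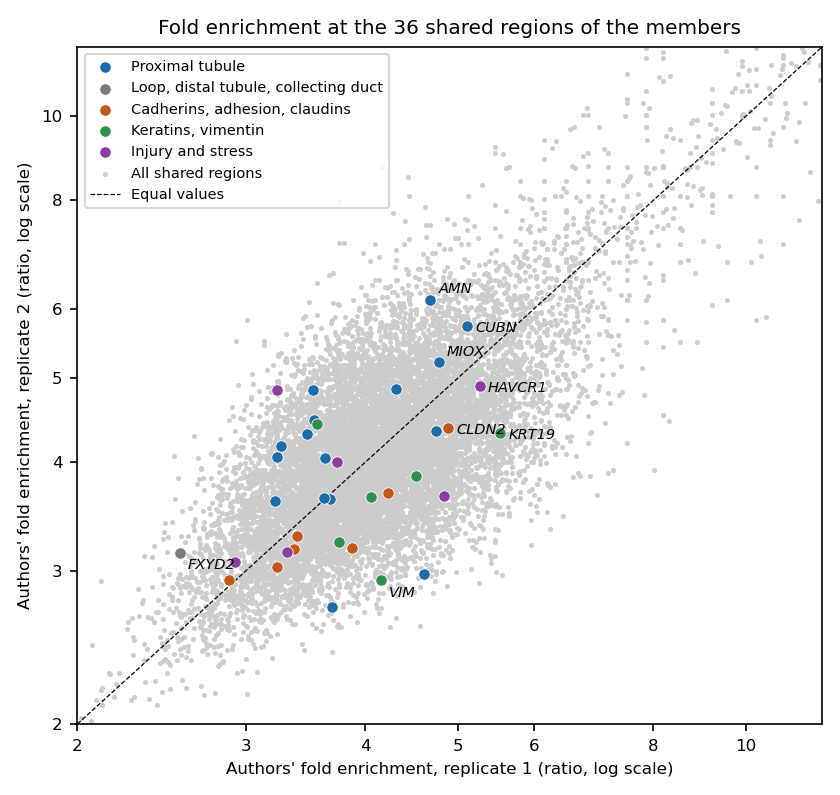
Authors' fold enrichment in replicate 1 (horizontal, ratio on a log scale) and replicate 2 (vertical, ratio on a log scale) at the 36 regions of the members, coloured by role, over all shared regions in grey; axes run to 12-fold. The members lie between 2.56 and 5.53 in replicate 1 and between 2.73 and 6.15 in replicate 2, inside the cloud of all regions.

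Of the genes of the receptor complex for filtered protein, CUBN and AMN had shared regions and LRP2 had none. CUBN, which encodes cubilin, the receptor for intrinsic factor with vitamin B12 and for albumin (chromosome 10, 16823966 to 17129811), held 7 shared regions, a number reached by 21 of 511 genes of similar length (4.11%). Only 1 of the 7 remained where a −log10 q of at least 5 was required in both replicates. All 7 lay inside the gene, and none lay within 1 kb of its start. Its strongest region (16966019 to 16966442), 164 kb after the start, had a fold enrichment of 5.10 in replicate 1 and 5.73 in replicate 2, percentile 87.4 among all shared regions and the highest of the 36. The other 6 had means between 3.41 and 4.0. The widest gap between the libraries was at the region nearest the 3′ end (16828858 to 16829136), with 4.60 in replicate 1 and 2.98 in replicate 2. AMN, which encodes amnionless, the membrane anchor of cubilin (chromosome 14, 102922663 to 102930842), had 1 region (102931238 to 102931897), with its summit 534 bp beyond the 3′ end, and its fold enrichment was 4.68 in replicate 1 and 6.15 in replicate 2. LRP2, which encodes megalin, had no shared region over its 235426 bp, while 48.2% of genes of similar length had one. A single peak of replicate 1 lay in LRP2, with a fold enrichment of 4.73.

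Among transporters of the proximal tubule, 4 of 9 had a shared region, and genes of similar length would give 2.53. SLC4A4, which encodes the basolateral sodium bicarbonate cotransporter (chromosome 4, 71062660 to 71572083), held 3, and 57 of 271 genes of similar length (21.0%) had at least as many. With a −log10 q of at least 5 it held 1. A region (71338994 to 71339483) lay at the most downstream of its 5 starts in the promoter table, with a fold enrichment of 3.52 in replicate 1 and 4.84 in replicate 2. The strongest of the 3 (71231048 to 71231433), inside the gene, had 4.31 and 4.86. Of the peaks at SLC4A4, 3 of 7 in replicate 1 and 3 of 6 in replicate 2 belonged to shared regions, so most of its replicate 1 peaks had no counterpart. SLC22A2, which encodes the organic cation transporter OCT2 (chromosome 6, 160216755 to 160258821), had a region 3881 bp after its start (160254755 to 160255135), with 4.74 in replicate 1 and 4.35 in replicate 2. The mean there was 4.54 ± 0.276 (SD, n = 2).

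SLC5A2, which encodes the glucose cotransporter SGLT2, had a weaker region 1619 bp after its start, 3.69 in replicate 1 and 2.73 in replicate 2. AQP1, the water channel of the proximal tubule and thin descending limb, had a region whose edge lay within 1 kb of its start (30912755 to 30913171 on chromosome 7), with 3.67 and 3.63. The other glucose cotransporter gene, SLC5A1, had 2 peaks of replicate 2 alone, at 3.76 and 4.12. SLC9A3, which encodes the sodium/hydrogen exchanger NHE3, had 1 peak of replicate 2 alone, at 3.34. The organic anion transporter genes SLC22A6 and SLC22A8 and the phosphate transporter gene SLC34A1 had no peak in either list.

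MIOX, which encodes the kidney enzyme that opens the inositol ring (chromosome 22, 50486859 to 50490648), carried a region across its start. Its fold enrichment was 4.77 in replicate 1 and 5.21 in replicate 2, a mean of 4.99 ± 0.313 (SD, n = 2) at percentile 80.4. The region rested on pileups of 16 and 19 fragments, over solved backgrounds of 2.56 and 2.84. The replicate 1 peak (50486663 to 50486862) lay inside the replicate 2 peak (50486484 to 50486933). The region also lay within 1 kb of ADM2, and its assignment to either gene is by distance alone.

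Among brush border enzymes, GGT1, which encodes the glutathione-cleaving gamma-glutamyltransferase, had a region 1207 bp before an annotated start, with 3.47 in replicate 1 and 4.31 in replicate 2. GGT1 has near-identical copies elsewhere on its chromosome, and reads could be split among them. The peptidase genes ANPEP and MME had no peak in either list. DPEP1, which encodes a dipeptidase, had 2 peaks of replicate 1 and 1 of replicate 2 that did not overlap. In all, 8 of the 17 proximal tubule members had a shared region (47.1%), and genes of similar length would give 5.12.

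Of 7 members of the loop of Henle, distal tubule and collecting duct, FXYD2 alone had a shared region (14.3%), and genes of similar length would give 1.68. FXYD2, which encodes the gamma subunit of the sodium pump (chromosome 11, 117820057 to 117828089), had 2.56 in replicate 1 and 3.15 in replicate 2, percentile 5.45. The readthrough gene FXYD6-FXYD2 covers the same place. UMOD, SLC12A1 and SLC12A3, which encode uromodulin and the salt transporters blocked by loop and thiazide diuretics, had no peak in either list, and neither did the water channel genes AQP2 and AQP3. ATP1B1, which encodes the beta subunit of the sodium pump, had 3 peaks of replicate 2, between 2.98 and 3.83, and none of replicate 1.

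All 4 cadherin genes had shared regions in the window with 3 kb on either side, but not under every setting. CDH1 and CDH6 had none with a −log10 q of at least 5. CDH6 also had none with 50% reciprocal overlap of the replicate peaks or with summits within 100 bp. CDH16 had none with the gene span alone. CDH16, which encodes the kidney-specific cadherin (chromosome 16, 66908122 to 66918885), had 2 shared regions beyond its upper-coordinate end. The nearer (66918977 to 66919832) had a fold enrichment of 3.88 in replicate 1 and 3.19 in replicate 2, and its summit lay 387 bp from the gene. Its pileups of 44 and 41 fragments were the highest of the 36 regions, and so were its solved backgrounds, 10.6 and 12.2. At least 2 regions were found in 64 of 1991 genes of similar length (3.21%). The neighbourhood of CDH16 held 25 shared regions per Mb, against a median of 6 for other protein-coding genes. CDH16 has no entry in the promoter table, so this end was not identified as a start. RRAD, within 200 kb, held 4 shared regions by the same window, and these may include the 2 counted for CDH16. The assignment of those 2 to CDH16 is by distance alone.

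CDH1, which encodes E-cadherin, had 2 regions inside the gene, with 3.40 in replicate 1 and 3.29 in replicate 2 at the first and 3.37 and 3.18 at the second. Of 1627 genes as long as CDH1, 284 (17.5%) had at least 2 regions. CDH2, which encodes N-cadherin, had 1 at 4.22 and 3.69, and CDH6, a cadherin gene expressed in renal carcinoma, had 1 at 2.88 and 2.93. Genes as long as CDH2 and CDH6 had a region in 49.2% and 45.1% of cases. CLDN2, which encodes the claudin of the leaky proximal tubule junctions (chromosome X, 106900164 to 106930861), had a region at the second of its 2 starts (106917840 to 106918274), with 4.88 in replicate 1 and 4.38 in replicate 2. CLDN1 had no peak in either list, and EPCAM, which encodes an epithelial adhesion molecule, had 1 peak of replicate 2 beyond its span, at 4.06. The group thus had 5 of 7 (71.4%), and genes of similar length would give 2.26.

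Intermediate filament genes had 4 of 5 (80.0%), and genes of similar length would give 1.02. With summits within 100 bp, KRT7, KRT8 and VIM had none. KRT7 and VIM had none with a −log10 q of at least 5, and KRT19 and VIM had none with the gene span alone. KRT19, which encodes the smallest keratin (chromosome 17, 41523617 to 41528308), had a region on each side. The stronger (41530125 to 41530917), with its summit 2062 bp beyond the upper end, had 5.53 in replicate 1 and 4.33 in replicate 2. The weaker, 1821 bp below the lower end, had 3.56 and 4.43, so the replicates ranked the pair in opposite order. Of 1240 genes of similar length, 24 (1.94%) had at least 2 regions. The neighbourhood of KRT19 held 21 shared regions per Mb, against a median of 6 for other protein-coding genes. KRT19 held 1 with a −log10 q of at least 5, and 1 with 50% reciprocal overlap of the replicate peaks. Both KRT19 regions lay outside the gene.

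KRT8, which encodes the partner of keratin 18 in simple epithelia (chromosome 12, 52897191 to 52949860), had a region after its start (52925064 to 52925771), with 4.51 in replicate 1 and 3.86 in replicate 2. A second lay 562 bp beyond its 3′ end, with 4.06 and 3.65. KRT8 has 1 start in the promoter table, and its gene span begins at -23.4 kb relative to that start. KRT18, the neighbour whose product pairs with keratin 8, had no peak in either list. KRT7 had a broad region inside the gene, 3.75 in replicate 1 and 3.24 in replicate 2, with summits 773 bp apart. VIM, which encodes the mesenchymal filament vimentin, had a region whose summit lay 1118 bp beyond its 3′ end, with 4.15 in replicate 1 and 2.93 in replicate 2.

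HAVCR1, which encodes the injury marker KIM-1 (chromosome 5, 157029413 to 157069407), held 5 shared regions over 39995 bp. All 5 of its peaks in replicate 1 met all 5 in replicate 2. Only 11 of 2233 genes of similar length (0.493%) had at least 5, and the mean over the 2233 was 0.436. These genes were matched by length alone. Within 500 kb outside its window HAVCR1 had 12 shared regions per Mb, against a median of 6 for other protein-coding genes. Of the 5, 3 remained where the summits had to lie within 100 bp of each other, and 2 with a −log10 q of at least 5. The region at its start (157058806 to 157059409) had 5.26 in replicate 1 and 4.89 in replicate 2, a mean of 5.08 ± 0.263 (SD, n = 2) at percentile 82.3. It rested on pileups of 29 and 31, and its −log10 q was 9.96 and 9.79. Its summits lay 105 bp apart, so it was among the regions lost at 100 bp. HAVCR1 has 1 start in the promoter table, and its gene span begins at -10.3 kb relative to that start. The other 4 regions lay between 9280 and 24210 bp after the start, with means between 3.0 and 4.03. The farthest of them (157034752 to 157035139) had the widest gap between the libraries, with 3.23 in replicate 1 and 4.84 in replicate 2.

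The neighbouring family genes had fewer, 1 in TIMD4 and 0 in HAVCR2. SPP1, which encodes osteopontin, had a region 1858 bp beyond its 3′ end, with 4.84 in replicate 1 and 3.66 in replicate 2. CRYAB, which encodes a small heat shock protein, had no peak in either list.

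**Figure D4:**
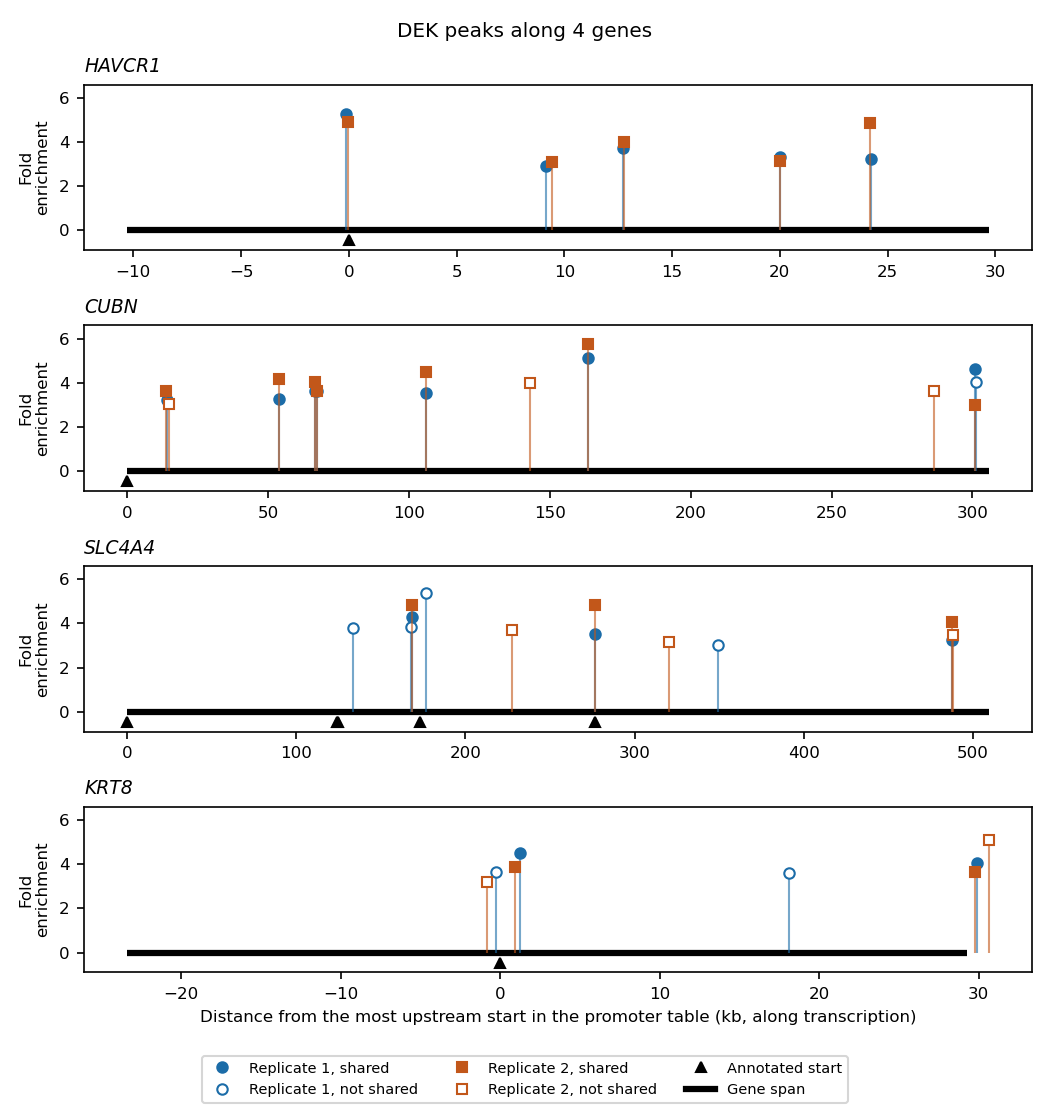
Authors' fold enrichment of each peak (vertical, linear ratio) against the distance of its summit from the most upstream start in the promoter table (horizontal, kb along transcription) for HAVCR1, CUBN, SLC4A4 and KRT8; circles are replicate 1, squares replicate 2, and filled marks belong to shared regions. All peaks of HAVCR1 are filled, while SLC4A4 has open marks of both replicates.

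Regions at transcription starts were a minority. Of the 36, 7 lay within 1 kb of a start, or of either end for the 10 members without an entry in the promoter table, 22 elsewhere inside a gene and 7 outside within 3 kb. The 7 at a start belonged to AQP1, CDH16, CLDN2, HAVCR1, KRT8, MIOX and SLC4A4, so 7 of 39 genes were marked there (17.9%, Wilson interval 8.98 to 32.7), against 6.48% of all protein-coding genes, and genes of similar length would give 2.62. CDH16 is counted by its gene end. Only at MIOX and FXYD2 did the summit of a region lie within 1 kb of another protein-coding gene. Region edges were not measured for this.

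Common promoter motifs were searched on either strand in windows of 300 bases, which include 50 after the start. CCAAT was in 27.9% of the 43 windows of the members, against 34.6% of all 35116, GGGCGG in 46.5%, against 45.0%, TATAAA in 18.6%, against 11.5%, and CACGTG in 4.65%, against 7.26%. None of these 4 motifs occurred in the 3 sequences printed above. The 43 windows belong to 29 genes, some with several overlapping starts, and a match is a description only.

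Of the 19 members without a shared region, 6 had peaks that did not coincide between the lists (ATP1B1, DPEP1, EPCAM, LRP2, SLC5A1 and SLC9A3) and 13 had none. A peak of replicate 1 was found at 22 of the 39, against 35.9% of all protein-coding genes, and a peak of replicate 2 at 25, against 41.5%. Genes without a peak may still be bound by DEK below the threshold of the deposited lists.

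Other genes of the same kind lay nearer the background. Over 4 further lists of proximal tubule, distal nephron, epithelial junction and injury genes, 37 of 119 genes had a shared region (31.1%), and genes of similar length would give 31.8 (26.7%). Proximal tubule genes had 8 of 35, and genes of similar length would give 9.76. In each list the examples below are ordered by the mean percentile of fold enrichment over both replicates, and the value given is the mean fold enrichment. First among the proximal genes were SLC3A1, a cystine transporter subunit gene (4.45 ± 0.625), PDZK1IP1 (4.43 ± 0.678, with 4 regions) and SLC22A5, the carnitine transporter gene (4.06 ± 0.564; SD, n = 2 for each). Distal genes had 11 of 32, and similar genes would give 9.33. First by percentile were STK39, a kinase gene of the salt transport pathway (5.00 ± 0.584), CLDN16 (4.85 ± 0.453) and the potassium channel gene KCNJ16 (4.47 ± 0.743).

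Junction and keratin genes had 10 of 32, and similar genes would give 7.77; the 10 include CLDN10 (4.92 ± 1.01) and the epithelial transcription factor gene ELF3 (4.52 ± 0.928). Injury and dedifferentiation genes had 8 of 20, and similar genes would give 4.95. First by percentile were ANXA3 (4.59 ± 0.723), the fibronectin gene FN1 (4.38 ± 0.129) and ANXA2 (4.10 ± 0.0853; SD, n = 2 for each). The share with a region was thus 51.3% in the 39 members, against 31.1% in these 119 genes, and that difference was not tested.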

How the data were processed

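Peak lists of 2 ChIP-seq libraries were used as deposited, in narrowPeak format. Per the submitters' processing notes, the build was GRCh38 and the tools were MACS2 2.2.7.1, Bowtie2 2.2.5, deepTools 3.5.1, cutadapt 1.18, ChIPseeker 1.32.1 and DiffBind 3.6.5, listed without roles. Peaks were deposited per library, and any control library for calling was not given in the sources used here. In 100% and 99.95% of peaks the deposited score was the −log10 q times 10, truncated. The deposited fold enrichment is a linear ratio at the summit, and the deposited −log10 p-value and −log10 q-value belong to the same position; the lowest −log10 q was 1.31 and 1.30.

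Of 19128 peaks in replicate 1 and 24580 in replicate 2, 19015 and 24457 on chromosomes 1 to 22 and X were kept. Overlap by 1 bp joined peaks into 12590 shared regions, each valued by its peak of lowest q per replicate. The summit pileup was solved from fold enrichment, taken as (pileup + 1) over (background + 1), and the Poisson p, within a relative tolerance of 1e-05 for all member regions; the background is in the same unit of fragments. Starts and promoters came from the RefSeq promoter table, which has entries for 29 of the 39 genes, and 1 symbol of the further lists, an older name of another entry, did not match. Functions were tested on simulated data. Python 3.11.15, numpy 2.4.6, pandas 2.3.3 and scipy 1.17.1 were used. The members and lists were chosen with earlier results of these data known, so no list test was made. All members are accounted for; described in full are the 10 with the highest percentile and those marked at a start, and the 3 highest genes of each further list are named, except that some results are not reported here.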

Additional observations from a re-analysis of the deposited data

How the results depend on the processing

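The 20 members with a shared region were 15 with 50% reciprocal overlap of the replicate peaks (without CDH6, KRT7, MIOX, SLC5A2 and SPP1), 13 with summits within 100 bp, 11 with −log10 q of at least 5 and 1, CUBN, with a fold enrichment of at least 5. The background moved with them, to 22, 19.6, 12.3 and 2.78% of all protein-coding genes. The difference from genes of similar length, 23.7 percentage points, ranged from 13.2 to 25.2 over the other alternatives and turned to -0.376 at a fold enrichment of at least 5, where 1 member was left. Regions per 100 kb of window, 1.32, ranged from 1.91 to 2.24 with either replicate left out (52 and 61 regions, against 28.1 and 35.7 in genes of similar length), and were 0.955, 0.808, 0.477 and 0.0367 under the same 4 settings. These are 26, 22, 13 and 1 regions, against 13.8, 11.7, 6.75 and 1.19, so the excess ended at a fold enrichment of at least 5. Members marked at a start, 7, were 4 with 50% reciprocal overlap (4.96% of all protein-coding genes) and 3 with summits within 100 bp (4.22%). They were 5 with −log10 q of at least 5 (2.37%) and 0 at a fold enrichment of at least 5 (0.551%). In the promoter window of 300 bp they were 4 (3.6%), and within 3 kb 12 (11.2%). The further lists, with the list of cells not in the culture, had 43 genes with a region, 20 at −log10 q of at least 5 and 0 at a fold enrichment of at least 5. The median fold enrichment of 3.85 was 3.68 to 3.77 with 1 replicate alone. With −log10 q of at least 5, CUBN had 1 region in place of 7, HAVCR1 2 in place of 5, SLC4A4 1 in place of 3, KRT19 and KRT8 1 in place of 2, and CDH1 0 in place of 2. KRT8 and CLDN2 had 0 with summits within 100 bp. MIOX kept its region with −log10 q of at least 5 but not with 50% reciprocal overlap. With the gene span alone, 15 members had a region (38.5%, without AMN, CDH16, KRT19, SPP1 and VIM). The share was 22% of all protein-coding genes and 22.8% of genes of similar length. The few fragments per peak limit the ranking of members. No paired analysis was possible because both samples belong to 1 group.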

Other observations

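Genes that mark kidney cell types not in the culture, podocytes, endothelium and leukocytes, had a shared region in 6 of 16 cases, and genes of similar length would give 5.33. First by the mean percentile of fold enrichment were PLA2R1, a podocyte receptor gene (4.68 ± 0.596), the endothelial adhesion gene PECAM1 (4.48 ± 0.333) and CDH5, which encodes the endothelial cadherin (4.20 ± 0.0833; SD, n = 2 for each). SYNPO, which encodes a podocyte actin-associated protein, held 4 shared regions and was marked at a start. Its region of highest percentile, not necessarily the one at the start, had 3.21 ± 0.0251. The share was 37.5%, against 33.3% of genes of similar length.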
